A study of Manihot esculenta with 8 samples.

Results

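Cassava (Manihot esculenta) is a tropical root crop whose growth is checked by chilling. The subject here is a set of 138 gene IDs whose transcripts were abundant in control shoots and moderately lower in cold-treated shoots. The set was chosen on levels in CPM, the count of an ID divided by the total count of its library and scaled to 1000000. An ID was taken if its control mean was at least 100 CPM, if its cold mean was above 1/3 and at most 2/3 of the control mean, and if its highest cold level lay below its lowest control level. These 138 members are 0.433% of the 31901 IDs in the deposited table and 6.86% of the 2012 IDs with a control mean of at least 100 CPM. The values of the comparison itself chose the members, so their levels and differences below are a description and do not test an effect of cold.

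Shoots of 2 groups were compared, all wild type and of the cultivar TM12. The cold group was grown for 2 weeks in the control conditions, moved to a lit cold room at 4 °C and harvested after 3 h. The control group had no treatment and stayed in chambers that ran at 20 °C in the 16 h light period and at 18 °C in the dark, at 60% humidity. Each group held 4 strand-specific total RNA libraries. The labels do not say whether each library stands for its own plant or pool. The p-values therefore rest on the spread among these libraries, which may be partly technical. The time of day at which control shoots were taken is not given, and a growth time is listed for the cold group alone. A difference between the groups in time of day or age therefore cannot be told apart from the cold.

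In a leafy shoot, a limited number of genes supplies a large part of the messenger RNA, so moderate shifts in these genes change the make-up of the pool more than large shifts in scarce ones. The level of a transcript reflects the balance of its synthesis and its decay, and low temperature can slow both. CPM are relative, so a lower level of one gene is matched by higher levels elsewhere. In bulk shoots, fewer cells of a type and less RNA per cell cannot be told apart. The IDs could not be paired with names or descriptions: 0 of them matched the gene table used, so no function is given for any member, and 2 members are named by ID. Gene lengths were not used, so an order of members by CPM is an order by reads, not by molecules. The labelled tissue could not be checked against marker genes for the same reason.

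Library totals ranged from 62798223 to 100031792 counts. The lowest count of a member in any library was 1354, for which counting alone gives an error of 2.72% at 1 standard deviation. No library was a repeat of another: the closest pair within a group had a chi-square of 66.2 per degree of freedom. The 1000 IDs with the most reads took a larger part of cold replicates 1 and 3 (36.36% and 38.07%) and of control replicate 1 (37.60%) than of the remaining libraries, where they took 33.41% to 34.57%.

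The members together held 2.19%, 2.27%, 2.31% and 2.09% of all counts in cold replicates 1 to 4, against 4.93%, 3.94%, 3.97% and 3.66% in control replicates 1 to 4. The 4 cold libraries lay close together and the control libraries were more spread, with control replicate 1 above the rest. The mean share was 2.21% ± 0.0973 in cold and 4.12% ± 0.554 in control libraries (SD, n = 4 each), a difference of -1.91 percentage points. The cold share was thus 0.537 of the control share. Without control replicate 1 the same 138 members held 3.86% ± 0.173 of the control counts, and the difference was -1.64 points.

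**Figure D1:**
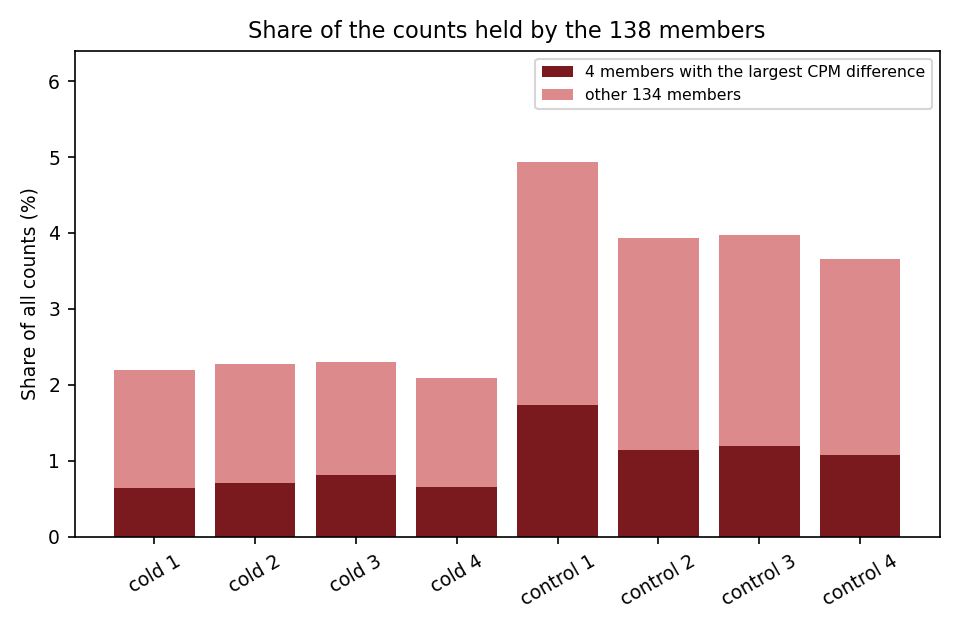
Share of all counts (%, y axis) held by the 138 members in each of the 4 cold and 4 control libraries (x axis), stacked as the 4 members with the largest CPM difference (dark) and the other 134 (light). The cold bars stand between 2.09% and 2.31%, the control bars between 3.66% and 4.93%, and both parts are taller in every control library.

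The loss was uneven over the members. Summed over the set, cold means were 19102 CPM below control means, and the median member accounted for 71.6 CPM of this and the smallest for 35.5 CPM. The 2 leading members made up 16.9% of the summed loss, the leading 4 made up 30.3% and the leading 10 made up 41.8%. It took 17 members to reach 50% of it. Without control replicate 1, neither of the 2 leading members met the rule, as described below. The 134 members outside the leading 4 held 1.51% ± 0.0591 of counts in cold and 2.84% ± 0.259 in control libraries (SD, n = 4 each), 0.531 of their control share. The leading 4 held 0.643%, 0.710%, 0.816% and 0.656% in cold replicates 1 to 4, against 1.73%, 1.14%, 1.19% and 1.08% in control replicates 1 to 4. For these 4 together the cold share was 0.549 of the control share, close to that of the other 134. That closeness leans on control replicate 1, where the leading 4 stood further above the remaining control libraries than the other 134 did. The other 134 held 3.20% in control replicate 1, against 2.80%, 2.78% and 2.58% in control replicates 2 to 4.

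Most members were of modest abundance within the chosen range. Control means ran from 100 to 4833 CPM with a median of 154 CPM, and cold means from 35.2 to 2967 CPM with a median of 84.5 CPM. Between 100 and 200 CPM in control there were 87 members among 1404 IDs (6.20%), and between 200 and 500 CPM there were 39 among 482 (8.09%). Between 500 and 1000 CPM there were 7 among 84 (8.33%), and above 1000 CPM there were 5 among 42 (11.9%). The 5 members above 1000 CPM made up 33.0% of the summed loss, against 27.7% for the 87 in the lowest band. Of the 10 IDs with the most reads in control shoots, 4 were members, and of the first 100, 9 were members.

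The cold-to-control ratio of the members had a median of 0.551, with quartiles of 0.464 and 0.615. It was at most 0.4 for 15 members, above that and at most 0.5 for 33, above that and at most 0.6 for 52, and higher for the remaining 38. The median ratio was 0.556 in the band of 100 to 200 CPM, 0.526 from 200 to 500 CPM, 0.499 from 500 to 1000 CPM and 0.561 above 1000 CPM, with no steady order by abundance.

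**Figure D2:**
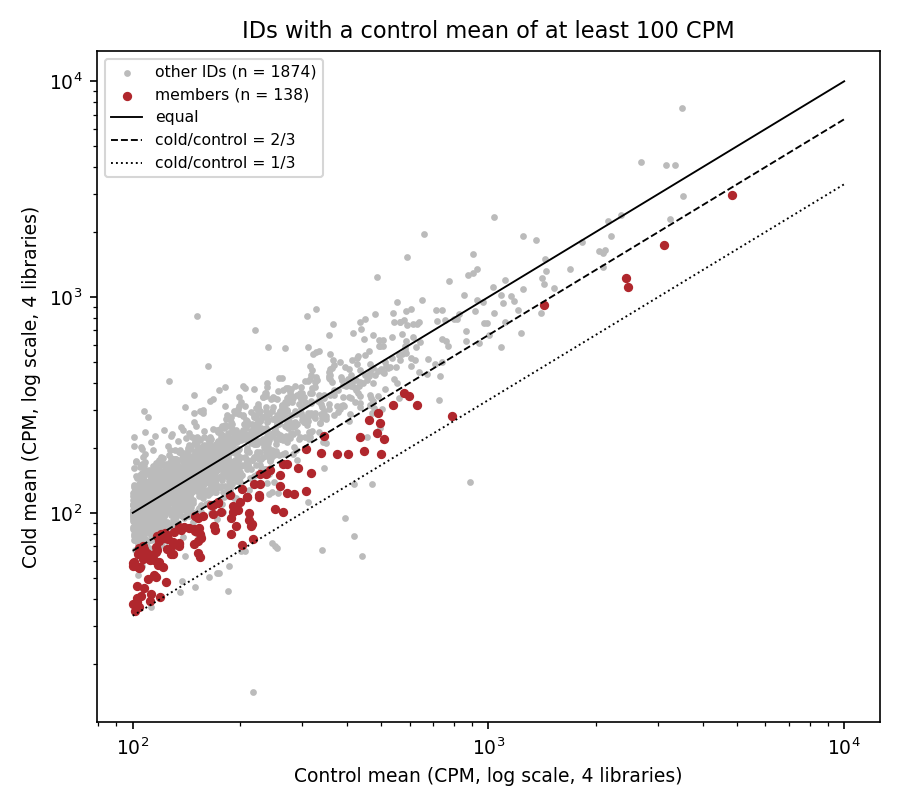
Cold mean (y axis, CPM, log scale) against control mean (x axis, CPM, log scale) for the 2012 IDs with a control mean of at least 100 CPM, with the 138 members in red and the other 1874 in grey. Lines mark equal means and ratios of 2/3 and 1/3. The members fill the band between the ratio lines from 100 to 4833 CPM, and grey points in the same band are the 71 IDs whose groups overlapped.

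Around the rule, 1782 of the 2012 abundant IDs had a ratio above 2/3, 209 lay in the ratio window and 21 had a ratio of at most 1/3. Of the 209 in the window, 71 were left out because a cold library reached the control range. Those 71 held 1.35% ± 0.106 of counts in cold and 2.28% ± 0.326 in control libraries (SD, n = 4 each). The 21 IDs below the window held 0.145% ± 0.0101 in cold and 0.603% ± 0.0882 in control libraries, a difference of -0.458 points. Across the 2012 abundant IDs, 283 (14.1%) had every cold library below every control library, as did 11.7% of the 26517 IDs that entered the test across all genes. These were the 138 members, the 21 IDs of lower ratio and 124 IDs of a ratio above 2/3.

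The thresholds cut through a continuous spread. The least abundant member had a control mean of 100.01 CPM, and the nearest ID left out for its level had 99.978 CPM. The highest member ratio was 0.6665, and the nearest ratio left out on that side was 0.6669. At the lower edge the member ratio was 0.3415 and the nearest one left out was 0.3300. The member with the closest groups had a highest cold level of 167.1 CPM and a lowest control level of 167.4 CPM. The nearest ID left out for overlap had a highest cold level of 89.83 CPM and a lowest control level of 89.44 CPM. A further 26 non-overlapping abundant IDs had ratios from 2/3 to 0.7.

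The reverse condition was met by fewer IDs. With a control mean of at least 100 CPM, a ratio of at least 1.5 and below 3, and every cold library above every control library, there were 60 IDs. They held 3.66% ± 0.330 of counts in cold and 1.81% ± 0.162 in control libraries (SD, n = 4 each), a difference of 1.85 points, against -1.91 points for the 138 members. The balance between both sets was not tested. The control mean sets the level in both conditions, so IDs that pass 100 CPM in the cold alone do not count among the 60. Whatever the ratio, 119 abundant IDs had every cold library above every control library, against 283 with every cold library below. These counts are on CPM without further factors. The members numbered 121 with TMM and 111 with RLE factors, and the reverse condition was not recounted with them. All 2012 abundant IDs together took 46.0% of counts in cold and 46.7% in control libraries.

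The leading member, MANES_17G066800, was the ID with the most reads in control shoots. It had 2920, 3095, 3279 and 2573 CPM in cold replicates 1 to 4, against 5988, 4489, 4455 and 4399 CPM in control replicates 1 to 4. The groups did not overlap, and control replicate 1 stood far above the other control libraries, which lay close together. Means were 2967 ± 301 CPM in cold and 4833 ± 771 CPM in control libraries (SD, n = 4 each). It ranked 5 by CPM in the cold. In edgeR its log2 fold change was -0.68 (SE 0.23) and its adjusted p 0.102, so it did not pass. DESeq2 gave -0.66 with an adjusted p of 0.00446. Without control replicate 1 the edgeR log2 fold change was -0.52 with an adjusted p of 0.164. The cold mean of this member was then just above 2/3 of its control mean, so it no longer met the rule.

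The second member, MANES_17G066700, precedes the first directly in the series of IDs on chromosome 17. It had 1504, 1696, 2197 and 1604 CPM in cold replicates 1 to 4, against 5011, 2517, 2614 and 2345 CPM in control replicates 1 to 4. The highest cold library came within a factor of 1.07 of the lowest control library, and the wide distance between the means rested largely on control replicate 1. Means were 1750 ± 308 CPM in cold and 3122 ± 1265 CPM in control libraries (SD, n = 4 each). The log2 fold change was -0.82 (SE 0.32) with an edgeR adjusted p of 0.138, and without control replicate 1 it was -0.44 with an adjusted p of 0.240. In DESeq2 it was -0.81 with an adjusted p of 0.0409. Without control replicate 1 the cold mean of this member was also above 2/3 of its control mean, so it no longer met the rule.

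Counts of these neighbours kept a similar proportion in most libraries. The leading member had 1.94, 1.83, 1.49 and 1.60 times the count of its neighbour in cold replicates 1 to 4, against 1.19, 1.78, 1.70 and 1.88 times in control replicates 1 to 4. The lowest proportion was that of control replicate 1, where the neighbour stood out more than the leading member. The next ID in the series, no member, was also abundant. It had 2204, 2384, 2642 and 1958 CPM in cold replicates 1 to 4, against 3508, 3077, 3100 and 3228 CPM in control replicates 1 to 4. Its groups did not overlap, and its ratio of 0.712 put it outside the window (log2 fold change -0.46, SE 0.21, edgeR adjusted p 0.199). The ID directly before the pair was far less abundant and had the higher mean in the cold. Its means were 37.5 CPM in cold and 27.8 CPM in control libraries (ratio 1.35, edgeR adjusted p 0.0947). How the counting treated reads that fit more than 1 of these neighbours is not known from the sources used here, so the split of counts between them is uncertain.

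The third member by loss also lay on chromosome 17. It had 1190, 919, 1448 and 900 CPM in cold replicates 1 to 4, against 3225, 2089, 2207 and 2366 CPM in control replicates 1 to 4. The groups were well apart, and control replicate 1 was again the highest. Means were 1114 ± 259 CPM in cold and 2472 ± 515 CPM in control libraries (SD, n = 4 each), with a log2 fold change of -1.12 (SE 0.27) and an edgeR adjusted p of 0.0320. Of the leading 4 it was the 1 that passed.

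The fourth, on chromosome 16, had 815, 1387, 1235 and 1480 CPM in cold replicates 1 to 4, against 3083, 2337, 2612 and 1680 CPM in control replicates 1 to 4. Cold replicate 4 and control replicate 4 came within a factor of 1.14 of each other. Means were 1229 ± 294 CPM in cold and 2428 ± 586 CPM in control libraries (SD, n = 4 each), with a log2 fold change of -0.97 (SE 0.27) and an edgeR adjusted p of 0.0529. By CPM, the members placed 2 to 4 by loss ranked 16, 36 and 31 in the cold and 7, 9 and 10 in control shoots.

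**Figure D3:**
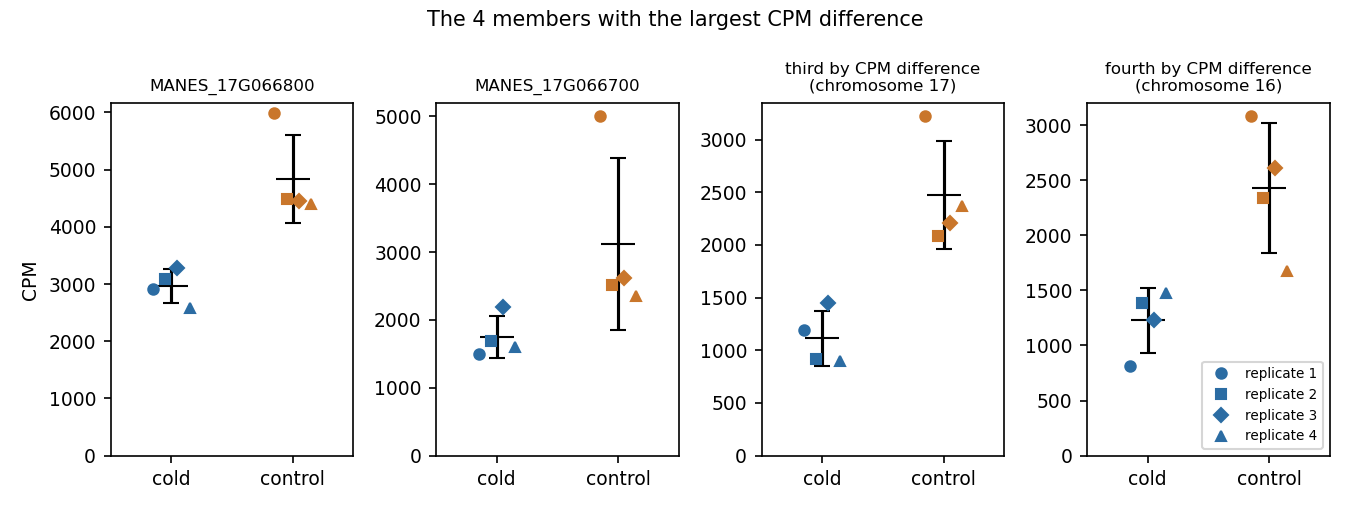
CPM (y axis, from 0) of the 4 members with the largest CPM difference, in the 4 cold libraries and the 4 control libraries; symbols are replicates, and bars show the mean and SD. In the first 3 panels control replicate 1 is the highest point by a wide margin, reaching 5988, 5011 and 3225 CPM.

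Lower in the order, some members were more evenly split. The sixth by loss, on chromosome 3, had 194, 342, 337 and 250 CPM in cold replicates 1 to 4, against 830, 837, 798 and 691 CPM in control replicates 1 to 4. Its control libraries were close together and the lowest was 2.02 times the highest cold library. Its log2 fold change was -1.46 (SE 0.21) with an edgeR adjusted p of 0.00418. The widest gap of the set belonged to a chromosome 14 member with 75.3, 83.7, 45.8 and 79.3 CPM in cold replicates 1 to 4, against 237, 197, 204 and 175 CPM in control replicates 1 to 4. Its lowest control level was 2.09 times its highest cold level. Over all members this factor had a median of 1.24. It was at least 1.5 for 24 members, at least 1.2 for 77 and below 1.1 for 27.

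The spread within groups is given as the coefficient of variation (SD over mean, 4 libraries). It had a median of 16.1% in cold and 17.6% in control libraries for the members. For the other 1874 abundant IDs it was 18.1% in cold and 15.8% in control libraries. The rule asks for groups that do not overlap and so favours a small spread: the 71 IDs left out for overlap had medians of 33.0% in cold and 34.2% in control libraries. Without control replicate 1, the control median was 14.5% for the members and 10.8% for the other abundant IDs.

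The spread of single members, chosen here after their values were seen, ranged widely. The most even cold levels were those of a chromosome 2 member, with 190, 194, 196 and 181 CPM in cold replicates 1 to 4, against 524, 228, 339 and 259 CPM in control replicates 1 to 4. Its control libraries differed far more than its cold libraries. The least even cold levels belonged to a chromosome 1 member, with 72.9, 18.1, 39.1 and 16.8 CPM in cold replicates 1 to 4, against 117, 133, 81.5 and 85.0 CPM in control replicates 1 to 4. There the cold libraries spread over a wider range than the control libraries, with a coefficient of variation of 71.4%. The least even control levels were those of a chromosome 5 member, with 109, 81.5, 113 and 109 CPM in cold replicates 1 to 4, against 347, 126, 168 and 150 CPM in control replicates 1 to 4. Control replicate 1 alone made its control range wide.

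No single control library set the members' upper level, although control replicate 1 did so most often. It held the highest control level for 65 members (47.1%), control replicate 2 for 33, control replicate 3 for 32 and control replicate 4 for 8. Among the other abundant IDs, control replicate 1 was the highest control library for 32.0% and control replicate 4 for 21.3%. The lowest control level, which decides whether groups overlap, was in control replicate 4 for 47 members, in control replicate 3 for 42, in control replicate 2 for 26 and in control replicate 1 for 23. The highest cold level was in cold replicates 1 to 4 for 46, 42, 33 and 17 members.

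Seen library by library, the median member had a log2 level relative to its control mean of -0.87, -0.85, -0.91 and -0.93 in cold replicates 1 to 4, against 0.14, -0.02, -0.06 and -0.14 in control replicates 1 to 4. All 4 cold libraries thus showed nearly the same typical reduction, while among the control libraries replicate 1 stood highest and replicate 4 lowest. For the other abundant IDs the medians ran from -0.08 to 0.00 in cold and from -0.04 to 0.01 in control libraries. The rule asks every cold library to lie below every control library. A reduction in all 4 cold libraries, and its distance from the other abundant IDs, is therefore built in.

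**Figure D4:**
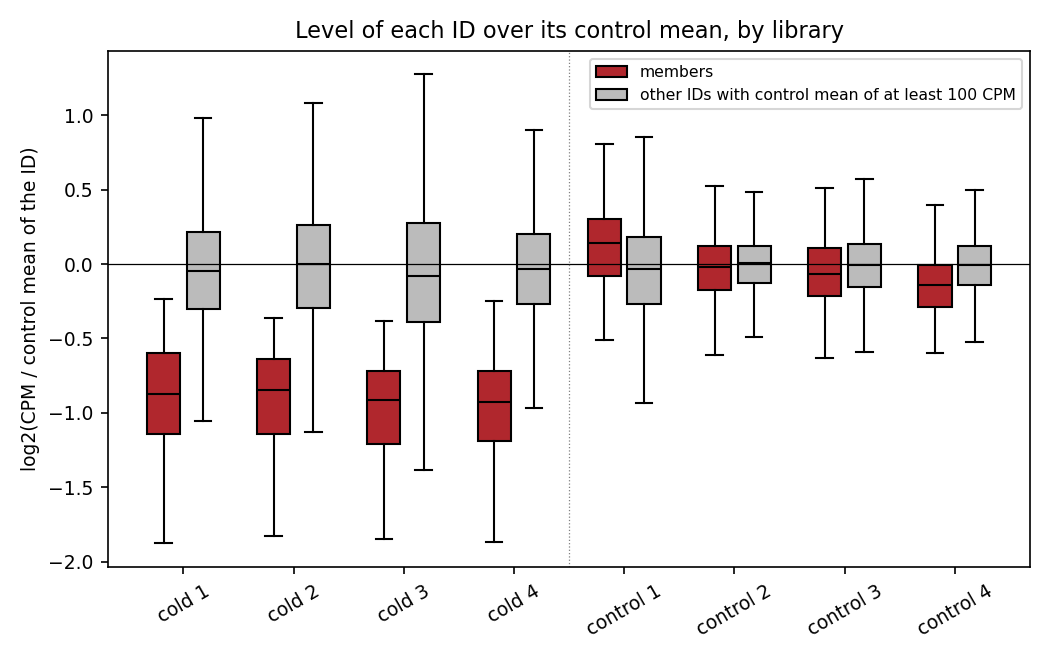
Log2 of the level over the control mean of the same ID (y axis) in each cold and control library (x axis), for the 138 members (red) and the 1874 other abundant IDs (grey). Boxes show quartiles and median, and whiskers reach the last value within 1.5 box lengths. The red boxes of the cold libraries have medians from -0.93 to -0.85 and those of the control libraries from -0.14 to 0.14.

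A library that had no part in the choice gives a view that the rule does not fully fix. The rule was applied to 7 libraries at a time, and the side of the library left out was then counted. With a cold library left out, 149 to 169 IDs were chosen. The cold library left out lay below every control library for 87.0% (replicate 1), 94.2% (replicate 2), 82.7% (replicate 3) and 91.9% (replicate 4) of them. Among all abundant IDs the shares were 33.2%, 32.6%, 38.3% and 32.0%. With a control library left out, 136 to 166 IDs were chosen. The control library left out lay above every cold library for 78.0% (replicate 1), 95.6% (replicate 2), 91.3% (replicate 3) and 88.6% (replicate 4), against 31.1%, 30.1%, 29.3% and 26.5% of all abundant IDs. Control replicate 1 was on its side least often, and of the 159 IDs chosen without it, 137 had a level in it above their cold mean. The libraries of the opposite group took part in the choice each time, so this is a description and no test.

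In the library left out, the median ratio was above the 0.551 of the set, a smaller difference, in each case except cold replicate 4. Each cold library left out had a median ratio to the control mean of 0.598, 0.589, 0.584 and 0.534 for replicates 1 to 4. The cold mean over each control library left out had a median ratio of 0.578, 0.571, 0.609 and 0.640 for replicates 1 to 4. Over all abundant IDs these medians lay between 0.912 and 1.03. The libraries of the opposite group helped to choose the IDs, so the lower ratios are partly built in and test nothing.

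**Figure D5:**
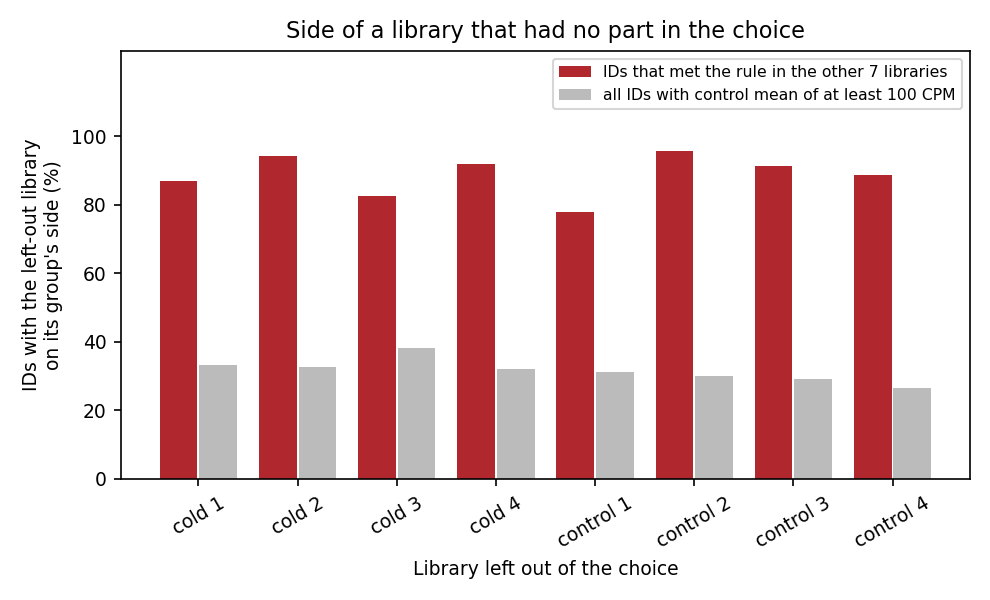
Share of IDs (%, y axis) for which the library left out of the choice (x axis) lay on its group's side of all libraries of the other group, for IDs that met the rule in the other 7 libraries (red) and for all abundant IDs (grey). The red bars lie between 78.0% and 95.6% and the grey bars between 26.5% and 38.3%.

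All 138 members passed the filter on low counts and entered the test across all genes. By edgeR's quasi-likelihood test, adjusted over 26517 IDs by the Benjamini-Hochberg method, 100 of the 138 were lower in the cold at an adjusted p below 0.05. Over all tested IDs 5.09% were called lower, and over those with a control mean of at least 100 CPM 6.56% were. The rule used this contrast, so nothing is read from the higher share among members. The members' median log2 fold change was -0.83, against 0.01 over all tested IDs, and the members ranged from -1.53 to -0.55. The lowest adjusted p of a member was 0.000528. The 100 called members made up 56.9% of the summed loss, and of the leading 4 members 1 was called.

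The 38 members that were not called had adjusted p-values from 0.0508 to 0.147 in edgeR, and their median ratio was 0.582, against 0.524 for the 100 called. DESeq2 called 131 members lower, among 2385 lower calls over 30091 IDs, against 1349 over 26517 IDs in edgeR. With libraries left out, the lower calls in edgeR fell for members and over all tested IDs alike. Without cold replicate 2, 62 members were called, among 941 lower calls over 26768 IDs. The number was 58 without cold replicate 3 (844 over 26734 IDs) and 45 without cold replicate 4 (673 over 26776 IDs). It was 51 without control replicate 2 (589 over 26804 IDs). It was 56 with control replicate 1 and cold replicates 1 and 3 all left out (769 over 26935 IDs).

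The members were scattered over all 18 chromosomes, by the chromosome number in the ID. Counts ran from 2 on chromosome 12 to 14 on chromosome 1. As a share of the abundant IDs of a chromosome, members ran from 2.22% on chromosome 6 (3 of 135) and 2.35% on chromosome 12 (2 of 85) to 9.56% on chromosome 5 (13 of 136) and 11.9% on chromosome 17 (8 of 67). Chromosome 17 carried 25.3% of the summed loss, most of it in the 3 members described above, and chromosome 16 carried 8.72%.

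Directly beside another member in the ID series sat 6 members. Whether members sit together more often than other abundant IDs was not tested. Among 176 pairs of abundant IDs that follow each other directly in the ID series, 3 pairs had both as members and 24 had 1 member. The pairs were the leading pair on chromosome 17, a pair on chromosome 1 with ratios of 0.373 and 0.596, and a pair on chromosome 16 with ratios of 0.436 and 0.529. Counting pairs up to 5 places apart in the series, there were 7 pairs of members, these 3 included. The order of IDs was read from their numbers, as the sources used here name no build.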

How the data were processed

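Shoot RNA was sequenced in strand-specific libraries, per the labels' protocols. The authors deposited 1 table of unscaled, whole-number counts, with a row per gene ID and a column per library. STAR 2.7.10a, SAMtools 1.6 and bedtools 2.30 appear in the submitters' processing notes, with no role stated. The sources used here do not state how reads were counted, on which strand, or with which genome build and annotation. Of the 31901 IDs, 0 matched the table of gene names at hand (34312 rows). The gene lists kept for this report therefore could not be used.

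CPM were computed as count over column sum times 1000000. The members and lists were chosen with earlier results of these data known. IDs were named by a fixed rule, the 2 members with the largest difference in mean CPM. Cold was compared with control in R 4.3.3 with edgeR 4.0.16 (filterByExpr, TMM factors of 0.947 to 1.038, robust quasi-likelihood F test, 2-sided, no replicate block), adjusted by Benjamini-Hochberg over 26517 IDs with a threshold of 0.05. Standard errors come from the fold change and its F statistic. The procedure was tested on simulated data, where the condition to pass covered only changes larger than those of the members. Alternatives were DESeq2 1.42.0, limma-voom (limma 3.58.1), other factors, filters and thresholds, a replicate block and each library left out. Added after seeing the data was a comparison of control replicates 2 to 4 with cold replicates 2 and 4. Levels and shares were computed with pandas 2.3.3 and numpy 2.4.6 in Python 3.11.15, and figures drawn with matplotlib 3.10.9. The shallowest library had 62798223 counts and the deepest 100031792.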

Additional observations from a re-analysis of the deposited data

Results flagged for a closer look

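For each level and share printed for a member, the highest and lowest library of each group were set against the remaining 3. In 4 of 34 groups of 4 libraries a library stood far off, where chance gives about 1 in 20 groups, and the groups are not independent. Some of these members were printed for their extreme spread or loss, and the share of the leading 4 repeats members also counted singly. No excess over chance is therefore read from this count. MANES_17G066800 reached 5988 CPM in control replicate 1, against 4399 to 4489 CPM in the other control libraries. Its neighbour MANES_17G066700 reached 5011 CPM there, against 2345 to 2614 CPM. The 4 leading members together, which include this pair, held 1.73% of counts in that library, against 1.08% to 1.19% in the other control libraries. The chromosome 5 member with the least even control levels had 81.5 CPM in cold replicate 2, against 109 to 113 CPM in the other cold libraries.

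Over both groups of all 138 members, a far library was found in 21 of 276 groups (7.61%). It was control replicate 1 in 4 of them, control replicates 2 to 4 in 2, 3 and 3, and cold replicates 1 to 4 in 4, 3, 2 and 0.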

How the results depend on the processing

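The set depends on its thresholds and on scaling. It held 121 IDs with TMM factors (118 of the 138; 1.84% of counts in cold, 3.44% in control) and 111 with RLE factors (109 of the 138; 1.75% and 3.26%). It held 311 IDs from 50 CPM (2.87% and 5.31%), 51 from 200 CPM (1.59% and 2.98%), 100 at a ratio of at most 0.6 (1.42% and 2.86%), and 209 with overlap allowed (3.56% and 6.41%, a difference of -2.85 points). With control replicates 2 to 4 against cold replicates 2 and 4, chosen after seeing the data, it held 196 (105 of the 138; 3.39% and 6.03%, -2.64 points). Fewer libraries make the overlap condition easier to meet. With 1 library left out it held 136 to 169 IDs, 2.01% to 3.04% of counts in cold and 3.72% to 5.63% in control libraries, and the difference was -2.59 (without cold replicate 3) to -1.71 points. The share was lower in the cold in each of these settings, as the rule requires.

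edgeR called 2425 IDs, 1076 higher and 1349 lower. DESeq2 called 4667 (2282 higher, 2385 lower), and the cause was not tested. The comparison without the 3 libraries called 1388 (619 higher, 769 lower; 56 members). With 1 library left out, 1066 to 2356 IDs were called, 477 to 971 higher and 589 to 1385 lower, with 45 to 92 members. The total was 1264 when cold replicate 4 was left out, 1547 for cold replicate 3, and 1066, 1360 and 1557 for control replicates 2 to 4. The labels do not link libraries of the same number across groups, and their deviations from group means correlated at 0.12, 0.07, -0.33 and -0.05 for replicates 1 to 4. Adding the replicate block left 1281 calls, 592 higher and 689 lower, and 53 members among them. Of 160 recomputed values, 100 kept their side of the threshold or stayed within the replicate spread or 1.5 times the count. Of the remainder, 58 moved beyond these limits and 2 were stronger. Both named IDs kept a negative log2 fold change in each alternative run and passed in DESeq2 alone. No other scaling shifted the median log2 fold change of all IDs by as much as 0.1.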
